A study of Homo sapiens with 18 samples.

Results

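The 9 genes described here encode the receptors, docking proteins, PI3K subunits and transcription factors of the insulin and IGF pathway, namely IGF1R, INSR, IRS1, IRS2, PIK3CA, PIK3R1, FOXO1, FOXO3 and TXNIP. They were taken by name from the 58884 gene identifiers of the count files, and all 9 passed the filter on low counts in each of the fits. RNA came from T47D, a luminal estrogen receptor-positive breast cancer line that is known to carry an activating PIK3CA mutation. Cells labelled WT (T47D AAV) or PARP1 KO (T47D JL, 1 knockout line) were kept for 48 hours in DMSO, in 10 μmol/L niraparib or in 10 μmol/L olaparib, and each of the 6 groups was sequenced as 3 libraries. Niraparib and olaparib are inhibitors that bind the catalytic site of PARP1. The labels do not tie the 3 libraries of a group to separate cultures, so the P values measure the spread between these libraries. Each genotype is a single line, so that a difference between lines and the loss of PARP1 cannot be told apart.

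Insulin and the insulin-like growth factors bind the receptor tyrosine kinases INSR and IGF1R, which phosphorylate the docking proteins IRS1 and IRS2. The docked PI3K heterodimer, a catalytic subunit encoded by PIK3CA held by a regulatory subunit encoded by PIK3R1, makes the lipid second messenger that activates AKT. Active AKT phosphorylates FOXO1 and FOXO3 and keeps them out of the nucleus, and when the pathway is quiet nuclear FOXO factors raise the transcription of pathway genes that include INSR and IRS2. TXNIP binds thioredoxin and lowers glucose uptake, and its transcription is known to be driven by the glucose-sensing factors MondoA (MLXIP) and ChREBP (MLXIPL) with their partner MLX. In luminal breast cancer IGF1R and IRS1 are known for their dependence on estrogen receptor activity. Only polyadenylated RNA was measured here, not protein or phosphorylation.

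Because FOXO factors and the glucose-sensing factors act on promoters, the 250 bases before each RefSeq start of the 9 genes (GRCh38.p14, 16 starts) were searched on both strands for 3 motifs that were chosen with these promoters in view. The forkhead motif GTAAACA stood in 2 of the 16 windows and in 2.98% of all 35116 RefSeq windows of this length. The insulin response motif CAAAACA stood in 1 of the 16 and in 4.3% of all. A carbohydrate response element of 2 copies of CACGNG (each resembling an E-box) held 5 bases apart stood in 1 of the 16 and in 0.0456% of all windows, and it overlapped neither of the other motifs. TXNIP held both the forkhead motif, which began 124 bases before the start, and the carbohydrate response element, which began 88 bases before it. PIK3CA held the forkhead motif on the opposite strand 149 bases before its RefSeq start, within the span that the count files give to the gene. IRS2 held the insulin response motif on the opposite strand, 40 bases before its start. The TXNIP and IRS2 stretches are shown because these genes had the largest changes among the 9, with the matches in capitals and with bases inside the counted gene left out. The capitals of IRS2 read as CAAAACA on the other strand. A match describes the letters only.
TXNIP, chr1:145996601-145996829, minus strand: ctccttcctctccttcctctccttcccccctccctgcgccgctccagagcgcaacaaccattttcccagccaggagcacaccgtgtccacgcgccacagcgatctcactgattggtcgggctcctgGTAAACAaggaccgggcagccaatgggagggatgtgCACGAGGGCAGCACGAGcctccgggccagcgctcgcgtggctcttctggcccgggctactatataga
IRS2, chr13:109786584-109786833, minus strand: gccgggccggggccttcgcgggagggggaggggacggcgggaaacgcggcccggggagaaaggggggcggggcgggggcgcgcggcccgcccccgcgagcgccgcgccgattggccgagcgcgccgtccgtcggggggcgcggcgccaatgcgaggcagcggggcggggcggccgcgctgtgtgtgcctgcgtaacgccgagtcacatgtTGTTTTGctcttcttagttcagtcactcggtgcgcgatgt

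The libraries held between 28890837 and 52251288 counts assigned to genes, of which 4.39% to 5.68% fell on mitochondrial genes. Some libraries stood apart from the others of their group over all genes. By a chi-square per gene between libraries of a group, WT DMSO library 1 differed from libraries 2 and 3 by 17.3 and 15.9, and these from each other by 3.14. WT niraparib library 2 and PARP1 KO niraparib library 3 likewise lay at 11.2 or more and 10.7 or more from the rest of their group. PARP1 KO olaparib libraries 1 and 3 lay 16.6 apart, with library 2 between them at 9.54 and 7.53. The mitochondrial share was 5.60% in WT DMSO library 1 and 4.61% and 4.39% in the others. It was 5.68% in PARP1 KO olaparib library 3 and at most 4.69% in libraries 1 and 2. PARP1 KO niraparib library 3 had 5.58% (4.93% and 4.64% in the others), and WT niraparib library 2 had 5.22% (4.84% and 4.65%). WT olaparib library 3 had 5.57% (4.88% and 4.86%), in a group whose libraries lay at most 4.63 apart by chi-square. Its part in the results was not tested. PARP1 lay between 313 and 368 CPM (counts scaled to a common library total) in the 9 WT libraries and between 22.9 and 27.1 CPM in the 9 PARP1 KO libraries, so that residual counts remained in the knockout line. All 10 luminal markers examined, such as ESR1, PGR and GATA3, were at 111 CPM or above in every library. Of the 16 markers of basal, mesenchymal, fibroblast, leukocyte and endothelial cells, COL1A1 reached 86.3 to 164 CPM and each of the others stayed at or below 2.75 CPM. For the 9 genes the number of reads behind a library's value ran from 182 for FOXO1 to 12914 for TXNIP. Values below are CPM after trimmed mean of M values (TMM) scaling, given for libraries 1, 2 and 3 of a group in this order, and means carry the SD over n = 3. Levels of different genes are compared only per kilobase of exon (RPKM). Coordinates are those of the count files (GRCh38, Ensembl release 96) and span the whole gene, over whose exons the reads were counted.

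Per kilobase, TXNIP had the highest level of the 9 genes in WT cells with DMSO (27.6 ± 0.177 RPKM), followed by IGF1R (17.7 ± 0.602 RPKM) and PIK3CA (11.1 ± 0.436 RPKM). A middle group held PIK3R1 (4.81 ± 0.0590 RPKM), FOXO3 (4.59 ± 0.0513 RPKM) and IRS1 (3.28 ± 0.204 RPKM). The lowest levels belonged to IRS2 (1.41 ± 0.269 RPKM), FOXO1 (1.16 ± 0.0894 RPKM) and INSR (0.935 ± 0.00850 RPKM). No library of a gene in this order reached the values of the next gene. Ranked with all 13526 genes that averaged 1 CPM or more, TXNIP stood within the top 13% and INSR at 86.4% from the top. In PARP1 KO cells with DMSO the order was the same, except that FOXO1 (1.18 ± 0.0558 RPKM) and IRS2 (1.17 ± 0.136 RPKM) changed places and overlapped. FOXO3 moved above PIK3R1 without overlap in WT cells with niraparib (5.66 ± 0.120 against 4.41 ± 0.145 RPKM), in WT cells with olaparib (5.78 ± 0.217 against 4.19 ± 0.292 RPKM) and in PARP1 KO cells with olaparib (5.51 ± 0.623 against 4.55 ± 0.106 RPKM). With niraparib the knockout cells kept PIK3R1 (4.73 ± 0.215 RPKM) above FOXO3 (4.33 ± 0.160 RPKM).

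In WT cells both drugs raised TXNIP, FOXO1 and FOXO3, niraparib lowered IGF1R, and olaparib raised INSR and IRS2 and lowered IRS1 and PIK3R1. Olaparib still raised INSR, IRS2 and FOXO3 in PARP1 KO cells, together with IGF1R and PIK3CA, while no gene of the 9 passed the test with niraparib. A gene was counted as changed at an adjusted P below 0.05 in edgeR's quasi-likelihood test, with Benjamini-Hochberg adjustment over all genes tested, and as called if it also passed 1.5-fold. With niraparib against DMSO in WT cells 4 of 9 changed (3 higher and 1 lower) beside 38.0% of 22446 genes (19.9% higher and 18.1% lower), and 1, TXNIP, was called beside 13.8%. With olaparib in WT cells 7 of 9 changed (5 higher and 2 lower) beside 19% of all genes (11.2% higher and 7.77% lower), and again only TXNIP of the 9 was called beside 4.04%. Without WT olaparib library 1 the olaparib count was 4 of 9, since IRS1, PIK3R1 and FOXO1 no longer passed, beside 13.1% of all genes. Between niraparib and olaparib in WT cells 6 of 9 differed beside 32.2%, and 0 were called beside 8.95% (6 at an unadjusted P below 0.05 by edgeR, and 6 at an adjusted P below 0.05 by DESeq2). The share that niraparib changed among the 9 was thus near that over all genes, and the share that olaparib changed was above it. The shares over all genes depend on the filter on low counts. With edgeR's own filter, 8615 of 16827 genes changed with niraparib and 4516 with olaparib in WT cells.

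Niraparib in PARP1 KO cells changed 0 of 9 beside 0.109% of 22037 genes, and called 0 beside 0.0136%, with 0 of 9 at an unadjusted P below 0.05 by edgeR or by DESeq2. Olaparib changed 5 of 9 in these cells, all higher, beside 8.29% (975 higher and 852 lower of 22037), and IRS2 was called beside 0.803%. This count was 3 of 9 without PARP1 KO DMSO library 2, PARP1 KO olaparib library 1 or PARP1 KO olaparib library 2, since INSR and FOXO3 no longer passed. These counts stand beside 3.65%, 6.16% and 3.95% of all genes in the same fits. Between niraparib and olaparib in PARP1 KO cells 6 of 9 differed, all lower with niraparib, beside 10.0% (940 higher and 1263 lower of 22037), and IRS2 was called beside 1.07%. INSR and PIK3CA no longer passed without PARP1 KO niraparib library 3, PARP1 KO olaparib library 1 or PARP1 KO olaparib library 2. In those fits 9.56%, 6.86% and 5.92% of all genes differed, in that order. Without drug, 0 of 9 differed between PARP1 KO and WT beside 1.39% of 24675 genes, and 0 were called beside 0.146% (1 of 9 at an unadjusted P below 0.05 by edgeR, and 0 at an adjusted P below 0.05 by DESeq2). The share over all genes fell to 0.209% (called, 0.0204%) without WT DMSO library 1, and to 0.441%, 0.379% and 0.588% without PARP1 KO DMSO library 1, 2 and 3. The drug effect in PARP1 KO minus that in WT differed from 0 for 4 of 9 with niraparib beside 22.9%, and TXNIP was called beside 8.88%. For olaparib this difference passed for 0 of 9 beside 2.27% (1.16% to 3.67% with 1 library left out), and 0 were called beside 0.657% (2 at an unadjusted P below 0.05 by edgeR, and 1 at an adjusted P below 0.05 by DESeq2). The comparisons of each genotype share their DMSO libraries, so the 2 drugs' values against DMSO are set side by side only. In RNA from whole cultures, a lower level in every cell and fewer cells with the transcript cannot be told apart.

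**Figure D1:**
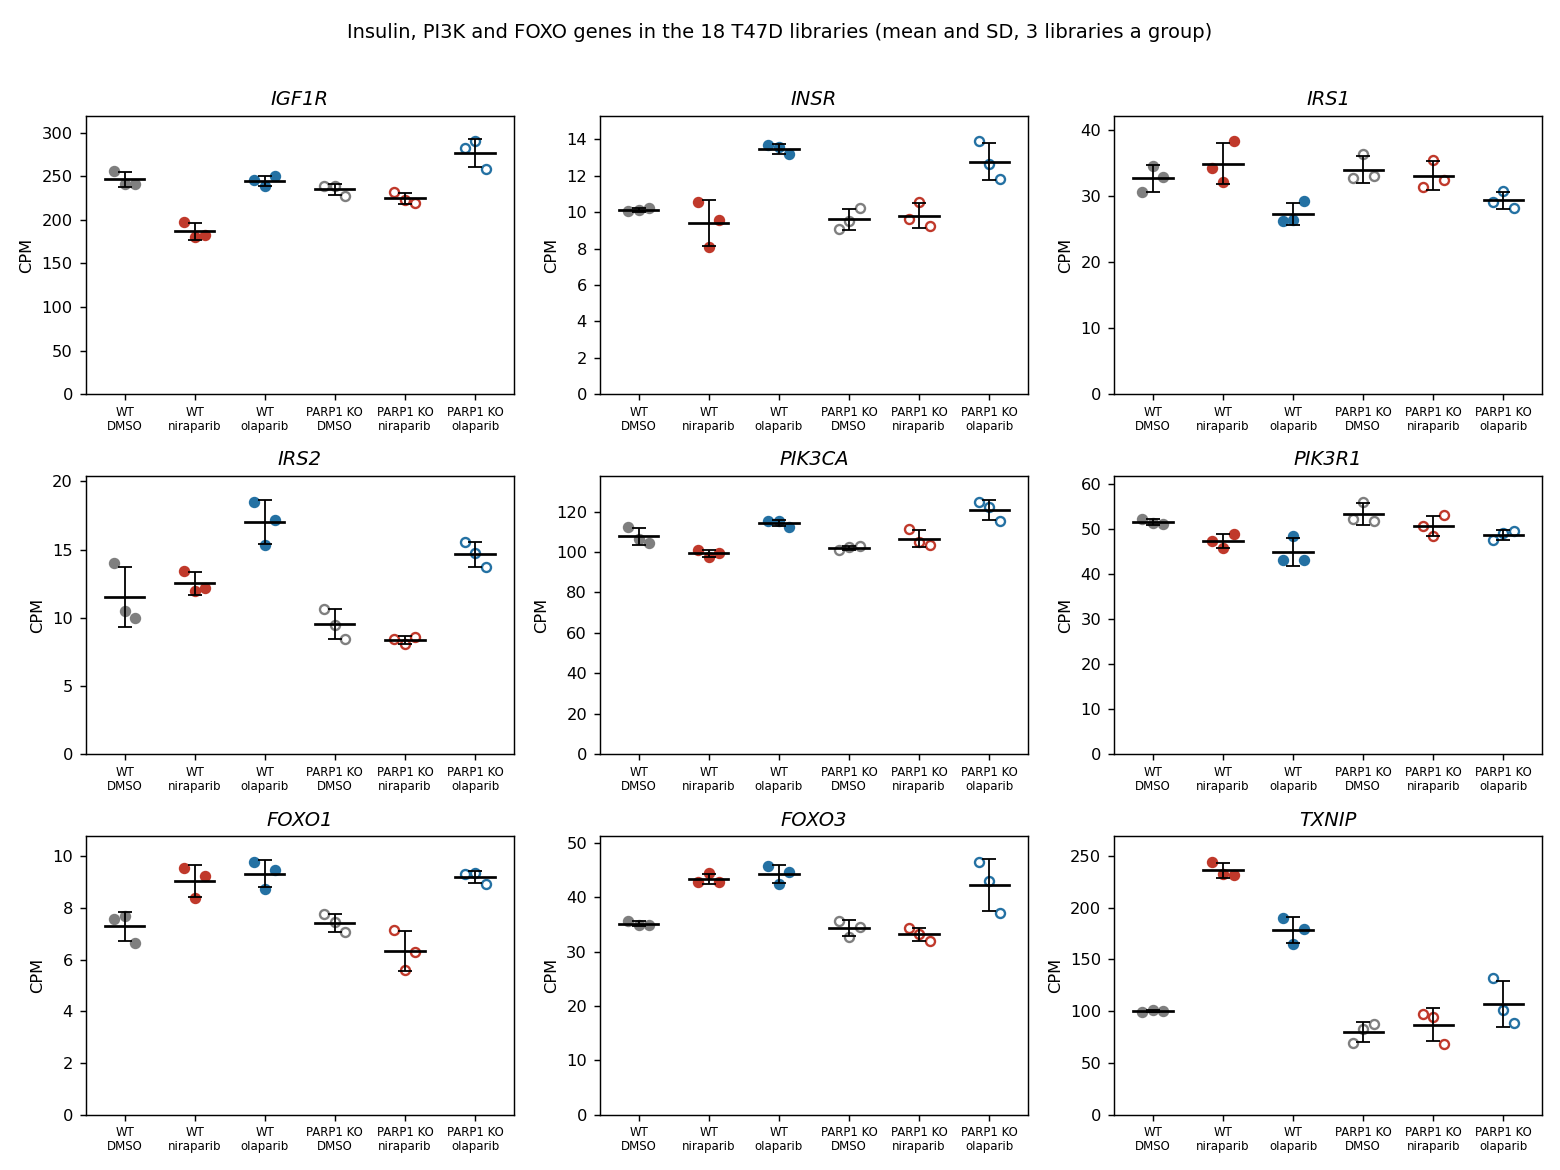
CPM of each of the 9 genes in the 18 libraries, with 1 point per library (filled, WT; open, PARP1 KO) and the mean and SD of the 3 libraries of each group in black. TXNIP in WT cells lay near 100.1 CPM with DMSO and at 165 CPM or above with either drug, and every knockout library lay at 132 CPM or below.

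**Figure D2:**
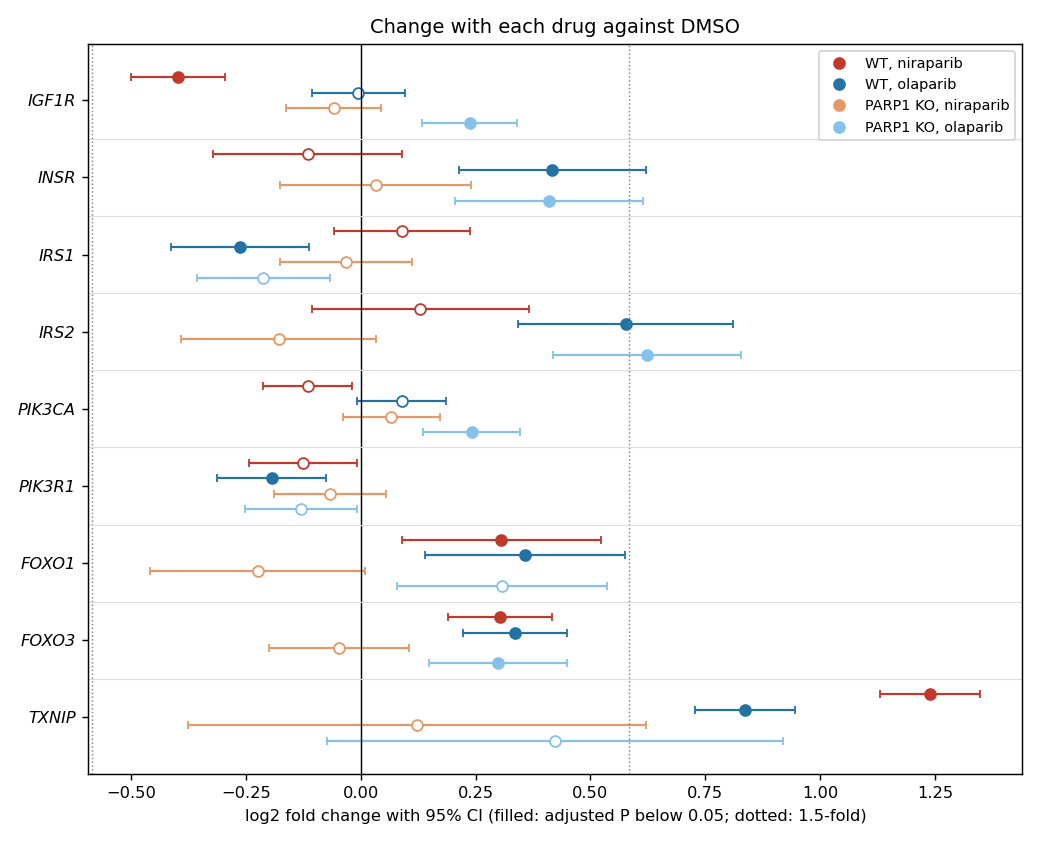
Log2 fold change of each gene with niraparib or olaparib against DMSO, in WT and PARP1 KO cells, with its 95% confidence interval. Filled points had an adjusted P below 0.05 in edgeR, and dotted lines mark 1.5-fold. The niraparib points of PARP1 KO cells are all open and lie between -0.22 and 0.12.

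IGF1R (ENSG00000140443, chromosome 15, 98648539 to 98964530, plus strand) encodes the receptor for IGF1 and IGF2. In WT cells it stood at 256, 242 and 241 CPM with DMSO, 198, 180.5 and 182 CPM with niraparib and 245, 238 and 251 CPM with olaparib. All 3 niraparib libraries were below every other WT library. Niraparib lowered IGF1R to 0.759 of its DMSO level (log2 fold change -0.40, SE 0.049, adjusted P = 8.72e-07), and the change with olaparib was -0.0055 (95% CI -0.11 to 0.096, adjusted P = 0.958). The PARP1 KO values were 239, 239 and 227 CPM with DMSO, 232, 222 and 219.7 CPM with niraparib and 282, 289.9 and 259 CPM with olaparib. The olaparib libraries of the knockout were the highest of all 18, without overlap with any other group, and IGF1R rose there by 0.24 on the log2 scale (log2 fold change 0.24, SE 0.050, adjusted P = 0.00465). The change with niraparib in the knockout was -0.059 (95% CI -0.16 to 0.045, adjusted P = 0.773). The niraparib effect differed between the genotypes by 0.33 (95% CI 0.19 to 0.48, adjusted P = 3.55e-04). For olaparib the difference between genotypes was 0.25 (95% CI 0.11 to 0.39, adjusted P = 0.0507), which passed with DESeq2 (adjusted P = 0.012), with size factors in place of TMM (adjusted P = 0.0473), with edgeR's own filter (adjusted P = 0.0339), with no filter (adjusted P = 0.022) and without PARP1 KO olaparib library 3 (adjusted P = 0.0189). Niraparib and olaparib differed in both genotypes, with a log2 fold change of niraparib against olaparib of -0.39 (adjusted P = 1.71e-06) in WT and -0.30 (adjusted P = 6.14e-04) in PARP1 KO cells.

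INSR (ENSG00000171105, chromosome 19, 7112255 to 7294414, minus strand) encodes the insulin receptor and had the lowest mean RPKM of the 9 genes in every group. Its values in WT cells were 10.0, 10.1 and 10.2 CPM with DMSO, 10.6, 8.07 and 9.57 CPM with niraparib and 13.7, 13.6 and 13.2 CPM with olaparib. Every olaparib library was above every DMSO and niraparib library, and niraparib and DMSO overlapped. INSR rose with olaparib (log2 fold change 0.42, SE 0.098, adjusted P = 0.00399), and the change with niraparib was -0.12 (95% CI -0.32 to 0.090, adjusted P = 0.403). PARP1 KO cells had 9.09, 9.53 and 10.2 CPM with DMSO, 9.60, 10.6 and 9.25 CPM with niraparib and 13.9, 12.6 and 11.8 CPM with olaparib, with the same absence of overlap for olaparib. The olaparib change in the knockout (log2 fold change 0.41, SE 0.098, adjusted P = 0.0117) did not pass when PARP1 KO DMSO library 1, PARP1 KO DMSO library 2, PARP1 KO olaparib library 1 or PARP1 KO olaparib library 2 was left out in turn (adjusted P = 0.0604, 0.0572, 0.0557 and 0.0501, in that order). Its niraparib change there was 0.032 (adjusted P = 0.956). Between genotypes the niraparib effect differed by 0.14 (95% CI -0.14 to 0.42, adjusted P = 0.534) and the olaparib effect by -0.0023 (95% CI -0.28 to 0.28, adjusted P = 1), the latter a difference whose sign turned with size factors, edgeR's own filter or DESeq2. INSR was lower with niraparib than with olaparib, with a log2 fold change of -0.53 (adjusted P = 1.82e-04) in WT and -0.38 (adjusted P = 0.0158) in PARP1 KO cells. In WT cells this difference passed 1.5-fold when WT niraparib library 1 was left out (log2 fold change -0.63). In the knockout it did not pass when PARP1 KO niraparib library 1, PARP1 KO niraparib library 3, PARP1 KO olaparib library 1 or PARP1 KO olaparib library 2 was left out in turn (adjusted P = 0.0596, 0.059, 0.0816 and 0.0567, in that order).

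IRS1 (ENSG00000169047, chromosome 2, 226731317 to 226799759, minus strand), the docking protein known to predominate in luminal breast cells, was present at 30.5, 34.6 and 32.9 CPM in WT cells with DMSO, 34.3, 32.2 and 38.3 CPM with niraparib and 26.2, 26.4 and 29.2 CPM with olaparib. The 3 olaparib libraries were below all DMSO and niraparib libraries. IRS1 fell with olaparib (log2 fold change -0.26, SE 0.072, adjusted P = 0.0125), and this did not pass when WT DMSO library 2, WT olaparib library 1 or WT olaparib library 2 was left out in turn (adjusted P = 0.0786, 0.0672 and 0.0645, in that order). With niraparib the change was 0.090 (95% CI -0.057 to 0.24, adjusted P = 0.357), and the log2 fold change of niraparib against olaparib was 0.35 (adjusted P = 5.21e-04) in WT and 0.18 (adjusted P = 0.114) in PARP1 KO cells. In the knockout IRS1 stood at 32.7, 36.3 and 33.0 CPM with DMSO, 31.4, 35.5 and 32.4 CPM with niraparib and 29.1, 30.8 and 28.1 CPM with olaparib. The knockout olaparib libraries were below all DMSO and niraparib libraries of that line, with a change of -0.21 (95% CI -0.36 to -0.068, adjusted P = 0.0625) against DMSO, which passed with DESeq2 (adjusted P = 0.0483) and without a filter on low counts (adjusted P = 0.0392). The niraparib change in this line was -0.033 (adjusted P = 0.928). The genotype differences were -0.13 (95% CI -0.33 to 0.073, adjusted P = 0.408) for the niraparib effect and 0.054 (95% CI -0.15 to 0.26, adjusted P = 0.845) for the olaparib effect.

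IRS2 (ENSG00000185950, chromosome 13, 109752695 to 109786583, minus strand), the second docking protein and a known FOXO target, moved the other way with olaparib. WT cells had 14, 10.5 and 10.0 CPM with DMSO, 13.5, 11.9 and 12.2 CPM with niraparib and 18.5, 15.3 and 17.1 CPM with olaparib. WT DMSO library 1 was well above the other DMSO libraries, the olaparib libraries were still above it, and niraparib overlapped DMSO. Library 1 also stood apart from libraries 2 and 3 over all genes. Olaparib raised IRS2 in WT cells (log2 fold change 0.58, SE 0.11, adjusted P = 0.00103), a fold of 1.49 that lay just under the 1.5-fold limit and passed it without WT DMSO library 1 (log2 fold change 0.73) or without WT olaparib library 2 (log2 fold change 0.65). The niraparib change was 0.13 (95% CI -0.11 to 0.37, adjusted P = 0.415), and it passed at 0.28 without WT DMSO library 1 (adjusted P = 0.0245). Knockout cells had 10.7, 9.47 and 8.47 CPM with DMSO, 8.48, 8.06 and 8.62 CPM with niraparib and 15.5, 14.7 and 13.7 CPM with olaparib. Olaparib raised IRS2 there by 1.54-fold (log2 fold change 0.62, SE 0.099, adjusted P = 4.96e-04), and niraparib gave -0.18 (95% CI -0.39 to 0.033, adjusted P = 0.635). Without PARP1 KO DMSO library 3 or PARP1 KO olaparib library 1 the knockout change was below 1.5-fold (log2 fold change 0.55 and 0.58). IRS2 was lower with niraparib than with olaparib in both lines, with a log2 fold change of -0.45 (adjusted P = 0.00362) in WT and -0.80 (adjusted P = 6.02e-05) in PARP1 KO cells. The niraparib effect differed between genotypes by -0.31 (95% CI -0.62 to -0.0032, adjusted P = 0.149), which passed without WT DMSO library 1 (adjusted P = 0.0131), and the olaparib effect by 0.051 (95% CI -0.25 to 0.35, adjusted P = 0.917).

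The ratio of IRS2 to IRS1, as RPKM, was 0.561, 0.370 and 0.371 in the WT DMSO libraries, 0.479, 0.453 and 0.388 with niraparib and 0.862, 0.710 and 0.716 with olaparib. The knockout ratios were 0.399, 0.318 and 0.313 with DMSO, 0.330, 0.277 and 0.325 with niraparib and 0.652, 0.585 and 0.595 with olaparib. In both lines the olaparib ratios did not overlap with those of DMSO or niraparib. The log2 difference from DMSO was 0.84 in WT cells and 0.84 in PARP1 KO cells. Each of these had a two-sided exact permutation P of 0.1, the smallest that 3 against 3 libraries allow, and 0.255 after adjustment over the 28 comparisons of ratios.

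PIK3CA (ENSG00000121879, chromosome 3, 179148114 to 179240093, plus strand) encodes the catalytic p110 alpha subunit, and 35.2% of its exon bases lie opposite exons of a gene on the other strand, which the stranded counting separates. WT cells had 112, 106 and 104 CPM with DMSO, 101, 97.5 and 99.6 CPM with niraparib and 115, 115 and 112 CPM with olaparib. The niraparib libraries were below all other WT libraries, with a log2 fold change of -0.12 (95% CI -0.21 to -0.018, adjusted P = 0.0564) against DMSO, which passed with DESeq2 (adjusted P = 0.042), with edgeR's own filter (adjusted P = 0.0314) and without WT DMSO library 3 (adjusted P = 0.0489). With olaparib the change was 0.089 (95% CI -0.0081 to 0.19, adjusted P = 0.209). Between the drugs, PIK3CA was lower with niraparib (log2 fold change -0.20, adjusted P = 0.00152). In the knockout PIK3CA stood at 101, 102 and 103 CPM with DMSO, 111, 105 and 103 CPM with niraparib and 125, 122 and 115 CPM with olaparib. PIK3CA rose with olaparib in these cells (log2 fold change 0.24, SE 0.051, adjusted P = 0.0047), without overlap, and its niraparib change was 0.066 (adjusted P = 0.75). The log2 fold change of niraparib against olaparib in the knockout, -0.18 (adjusted P = 0.0299), did not pass with the replicate number as a block (adjusted P = 0.0514) or when PARP1 KO niraparib library 2, PARP1 KO niraparib library 3, PARP1 KO olaparib library 1 or PARP1 KO olaparib library 2 was left out in turn (adjusted P = 0.12, 0.0873, 0.106 and 0.115, in that order). Between genotypes the niraparib effect differed by 0.18 (95% CI 0.038 to 0.31, adjusted P = 0.0588), which passed with DESeq2 (adjusted P = 0.0151), size factors (adjusted P = 0.0467) and edgeR's own filter (adjusted P = 0.0237), and when WT DMSO library 3 or PARP1 KO niraparib library 3 was left out in turn (adjusted P = 0.0495 and 0.0435, in that order). For olaparib the genotypes differed by 0.16 (95% CI 0.019 to 0.29, adjusted P = 0.239).

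PIK3R1 (ENSG00000145675, chromosome 5, 68215756 to 68301821, plus strand) encodes the p85 alpha regulatory subunit that stabilizes and restrains the catalytic one. Its WT values were 52.3, 51.4 and 51.2 CPM with DMSO, 47.3, 45.8 and 48.9 CPM with niraparib and 43.1, 48.6 and 43.2 CPM with olaparib. Every drug-treated WT library was below the DMSO libraries. PIK3R1 fell with olaparib (log2 fold change -0.19, SE 0.057, adjusted P = 0.0188), which did not pass when WT olaparib library 1 or WT olaparib library 3 was left out in turn (adjusted P = 0.0983 and 0.103, in that order), and the change with niraparib was -0.13 (95% CI -0.24 to -0.0087, adjusted P = 0.0867). PARP1 KO cells had 52.4, 56.2 and 51.8 CPM with DMSO, 50.7, 48.5 and 53.1 CPM with niraparib and 47.5, 49.2 and 49.7 CPM with olaparib, with changes of -0.067 (adjusted P = 0.78) for niraparib and -0.13 (adjusted P = 0.197) for olaparib. Niraparib against olaparib gave 0.068 (adjusted P = 0.423) in WT and 0.064 (adjusted P = 0.609) in PARP1 KO cells. The genotype differences were 0.053 (95% CI -0.11 to 0.22, adjusted P = 0.713) for niraparib and 0.067 (95% CI -0.097 to 0.23, adjusted P = 0.736) for olaparib. Per kilobase, PIK3CA exceeded PIK3R1 by 2.39, 2.30 and 2.27-fold in the WT DMSO libraries and by 2.97, 2.63 and 2.89-fold with olaparib, and in PARP1 KO cells by 2.14, 2.02 and 2.21-fold with DMSO and 2.92, 2.76 and 2.57-fold with olaparib. The olaparib ratios were above the DMSO ratios in both lines, again at the smallest exact permutation P of 0.1 (0.255 after adjustment).

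FOXO1 (ENSG00000150907, chromosome 13, 40469953 to 40666641, minus strand), a forkhead factor that AKT holds in the cytoplasm, had few reads, between 182 and 465 a library, and 4.29% of its exon bases overlap another gene on the same strand. WT values were 7.57, 7.68 and 6.66 CPM with DMSO, 9.55, 8.38 and 9.23 CPM with niraparib and 9.80, 8.75 and 9.46 CPM with olaparib. No drug-treated WT library overlapped DMSO. FOXO1 rose with niraparib (log2 fold change 0.31, SE 0.10, adjusted P = 0.0232) and with olaparib (log2 fold change 0.36, SE 0.10, adjusted P = 0.0185). The niraparib change did not pass when WT DMSO library 3, WT niraparib library 1 or WT niraparib library 3 was left out in turn (adjusted P = 0.12, 0.0931 and 0.0641, in that order). For olaparib the change did not pass when WT DMSO library 3, WT olaparib library 1 or WT olaparib library 3 was left out in turn (adjusted P = 0.101, 0.0949 and 0.0641, in that order). FOXO1 in the knockout stood at 7.78, 7.44 and 7.08 CPM with DMSO, 7.15, 5.60 and 6.30 CPM with niraparib and 9.33, 9.34 and 8.92 CPM with olaparib. The knockout olaparib libraries were above all others of that line (0.31, 95% CI 0.079 to 0.54, adjusted P = 0.0908 against DMSO), and niraparib overlapped DMSO (-0.22, 95% CI -0.46 to 0.010, adjusted P = 0.569). Niraparib was below olaparib in the knockout (log2 fold change -0.53, adjusted P = 0.00348, or -0.62 and past 1.5-fold without PARP1 KO niraparib library 1), while in WT cells this comparison gave -0.052 (95% CI -0.27 to 0.16, adjusted P = 0.769). The niraparib effect differed between genotypes by -0.54 (95% CI -0.84 to -0.23, adjusted P = 0.00696), which passed 1.5-fold without WT niraparib library 2 (-0.60) or without PARP1 KO niraparib library 1 (-0.62), and the olaparib effect by -0.046 (95% CI -0.35 to 0.26, adjusted P = 0.928).

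FOXO3 (ENSG00000118689, chromosome 6, 108559835 to 108684774, plus strand) is the more abundant FOXO factor of these cells. It stood at 35.6, 34.9 and 35.0 CPM in WT cells with DMSO, 42.8, 44.5 and 42.9 CPM with niraparib and 45.8, 42.5 and 44.7 CPM with olaparib. The 6 drug-treated WT libraries were all above the DMSO libraries. FOXO3 rose with niraparib (log2 fold change 0.30, SE 0.054, adjusted P = 1.0e-04) and with olaparib (log2 fold change 0.34, SE 0.055, adjusted P = 1.29e-04), and the drugs differed by -0.033 (95% CI -0.15 to 0.079, adjusted P = 0.709). In the knockout the values were 35.7, 32.8 and 34.6 CPM with DMSO, 34.4, 33.2 and 32.0 CPM with niraparib and 46.6, 43.0 and 37.1 CPM with olaparib. PARP1 KO olaparib library 3 was the lowest of its group and still above every DMSO library. The olaparib rise in the knockout (log2 fold change 0.30, SE 0.073, adjusted P = 0.0127) did not pass when PARP1 KO DMSO library 2, PARP1 KO olaparib library 1 or PARP1 KO olaparib library 2 was left out in turn (adjusted P = 0.0863, 0.0706 and 0.0743, in that order), and the change with niraparib was -0.047 (95% CI -0.20 to 0.11, adjusted P = 0.904). Niraparib was below olaparib in the knockout (log2 fold change -0.35, adjusted P = 0.0037). Between genotypes the niraparib effect differed by -0.36 (95% CI -0.54 to -0.17, adjusted P = 0.00353) and the olaparib effect by -0.033 (95% CI -0.22 to 0.15, adjusted P = 0.911).

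Per kilobase FOXO3 exceeded FOXO1 by 3.85, 3.72 and 4.30-fold in the WT DMSO libraries, 3.67, 4.34 and 3.80-fold with niraparib and 3.82, 3.97 and 3.86-fold with olaparib. The groups overlapped, with exact permutation P values of 0.800 for niraparib and 0.900 for olaparib against DMSO (adjusted over the 28 comparisons, 0.974 and 1). The receptor ratio, IGF1R to INSR, was 19.8, 18.5 and 18.3 in WT cells with DMSO, 14.5, 17.4 and 14.8 with niraparib and 13.9, 13.6 and 14.8 with olaparib. With either drug the WT ratios lay below those with DMSO without overlap, at an exact permutation P of 0.1 each (0.255 after adjustment). The PARP1 KO ratios were 20.4, 19.5 and 17.2 with DMSO, 18.8, 16.3 and 18.4 with niraparib and 15.8, 17.8 and 17 with olaparib, and the groups overlapped.

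TXNIP (ENSG00000265972, chromosome 1, 145992435 to 145996600, minus strand) is an arrestin-domain protein that restrains thioredoxin and glucose uptake. WT cells had 99.5, 101 and 99.9 CPM with DMSO, 245, 233 and 232 CPM with niraparib and 190.2, 165 and 179 CPM with olaparib. The DMSO libraries were nearly equal, and the 3 WT groups lay apart in the order niraparib, olaparib and DMSO. Niraparib raised TXNIP 2.36-fold (log2 fold change 1.24, SE 0.052, adjusted P = 5.57e-14) and olaparib 1.79-fold (log2 fold change 0.84, SE 0.052, adjusted P = 6.03e-10). TXNIP was higher with niraparib than with olaparib (log2 fold change 0.40, adjusted P = 2.08e-06), which did not pass when all 18 libraries shared one fit (adjusted P = 0.0565). TXNIP in PARP1 KO cells stood at 68.9, 83.1 and 87.8 CPM with DMSO, 97.6, 94.6 and 68.5 CPM with niraparib and 132, 101 and 88.9 CPM with olaparib. These libraries spread more widely than those of WT cells, with a coefficient of variation of 12.3% with DMSO, 18.4% with niraparib and 20.6% with olaparib, against 0.641%, 3.02% and 7.03% in WT cells. The knockout changes were 0.12 (95% CI -0.38 to 0.62, adjusted P = 0.914) for niraparib and 0.42 (95% CI -0.073 to 0.92, adjusted P = 0.315) for olaparib, and niraparib against olaparib gave -0.30 (adjusted P = 0.487). Every knockout olaparib library was above every knockout DMSO library, and niraparib overlapped both. All 9 knockout libraries lay below all 6 drug-treated WT libraries. The niraparib effect differed between genotypes by -1.12 (95% CI -1.58 to -0.66, adjusted P = 0.00159), the largest such difference among the 9, and for olaparib the difference was -0.41 (95% CI -0.87 to 0.052, adjusted P = 0.378). Without drug, PARP1 KO and WT cells differed by -0.32 (95% CI -0.65 to 0.0036, adjusted P = 0.374), although no knockout DMSO library reached the WT DMSO values.

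**Figure D3:**
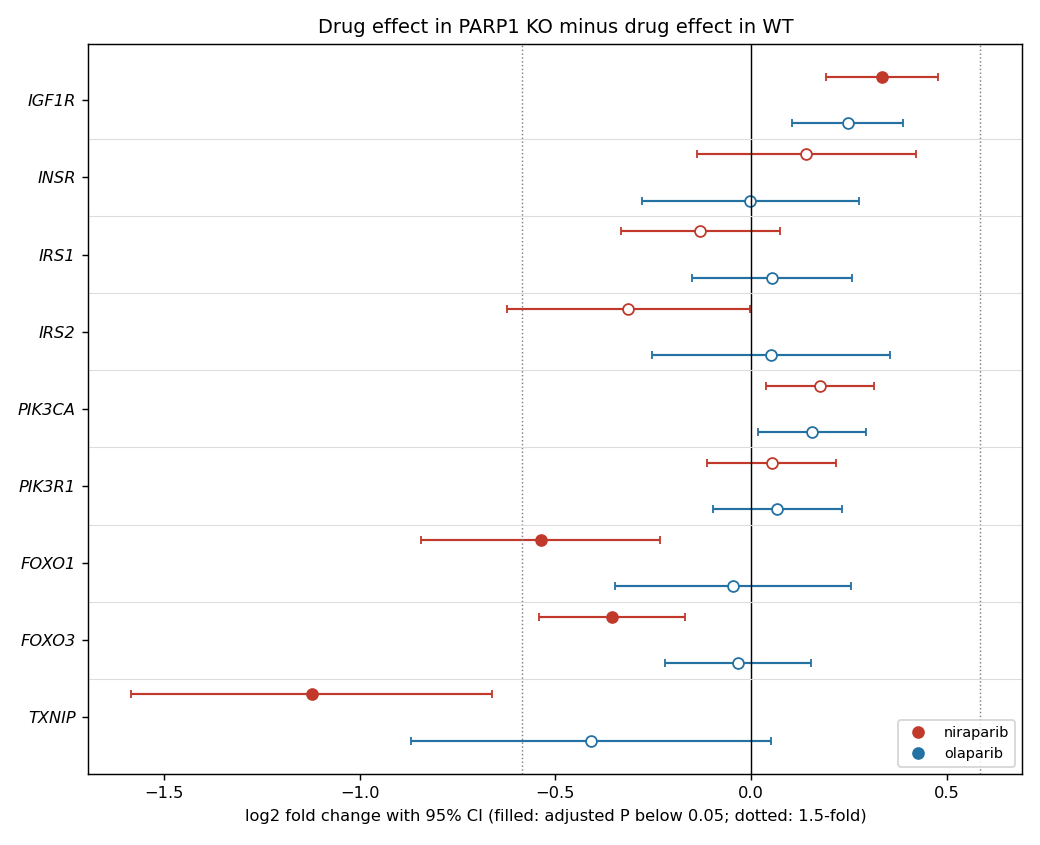
Drug effect in PARP1 KO cells minus drug effect in WT cells on the log2 scale, with its 95% confidence interval, for niraparib and olaparib. Filled points (adjusted P below 0.05 in edgeR) are IGF1R, FOXO1, FOXO3 and TXNIP with niraparib, and TXNIP at -1.12 is the farthest from 0.

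Apart from TXNIP, the PARP1 KO minus WT differences ran from -0.26 for IRS2 (95% CI -0.48 to -0.042) to 0.053 for IRS1 (95% CI -0.090 to 0.20). Neither passed the adjusted test (adjusted P = 0.26 and 0.8). With 1 library left out, the IRS2 difference ran over -0.35 to -0.11, where the value nearest 0 was that without WT DMSO library 1 (adjusted P = 0.849), and the IRS1 difference over 0.0049 to 0.097. The DMSO libraries of the lines did not overlap for IGF1R, PIK3CA and TXNIP, each lower in PARP1 KO, and overlapped for the other members. None of these differences passed in edgeR (adjusted P = 0.576, 0.508 and 0.374, in that order). The share of all genes without such overlap was not counted, so no difference between the lines is read from it.

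The rest of the pathway was examined in 6 lists with 99 genes, of which 88 could be tested in at least 1 fit. INS had 0 counts in the 18 libraries together, which allows up to 0.00446 CPM (3 counts of the total, for counting error only), and IGF1 had 3 counts, so both ligand transcripts were at or below 3 counts over all libraries. The third ligand, IGF2, lay between 0.0498 and 0.535 CPM. INS and IGF2 are uncertain, since 31.7% and 73.7% of their exon bases overlap another gene on the same strand. Of 87 wider genes tested in WT cells, niraparib raised 24 and lowered 24, and the median of their log2 fold changes was 0.020 (all genes, -0.025), beside 19.9% higher and 18.1% lower of all genes. Olaparib raised 27 and lowered 6 of them, with a median of 0.065 (all genes, -0.017), beside 11.2% higher and 7.77% lower of all genes. Niraparib in PARP1 KO cells changed 0 of 87 (15 at an unadjusted P below 0.05 by edgeR, and 2 at an adjusted P below 0.05 by DESeq2), beside 0.109% of all genes, and olaparib raised 18 and lowered 1, beside 8.29% of all genes (975 higher and 852 lower of 22037). This olaparib count was 10 higher and 0 lower without PARP1 KO DMSO library 2, and 10 higher and 1 lower without PARP1 KO olaparib library 2, beside 3.65% and 3.95% of all genes. Under edgeR's own filter on low counts, the changed genes in WT cells were 8615 of 16827 with niraparib and 4516 with olaparib. The niraparib effect differed between genotypes for 34 of 88, beside 22.9% of all genes (6028 of 17444 with that filter). For the olaparib effect this count was 5 of 88, beside 2.27% of all genes, 10 by DESeq2, and 1 to 3 when any of 11 of the 12 DMSO and olaparib libraries was left out in turn.

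Among the 8 ligands, binding proteins and other receptors that could be tested, niraparib lowered 3 and raised 0 in WT cells (median 0.0063), beside 19.9% higher and 18.1% lower over all genes, and olaparib changed 0 (1 at an unadjusted P below 0.05 by edgeR, and 1 at an adjusted P below 0.05 by DESeq2), beside 11.2% higher and 7.77% lower over all genes. IGFBP4, which binds and sequesters IGFs, fell from 1514 ± 42.0 to 981 ± 87.1 CPM with niraparib (log2 fold change -0.63, SE 0.057, adjusted P = 1.17e-08), and was 1528 ± 11.4 CPM with olaparib. IGFBP5, another IGF binding protein, fell from 1489 ± 149 to 948 ± 124 CPM with niraparib (log2 fold change -0.65, SE 0.097, adjusted P = 3.05e-04), and was 1217 ± 40.3 CPM with olaparib (-0.29, adjusted P = 0.0666). This olaparib value, the only one of the list to do so, passed with DESeq2 (adjusted P = 0.00241), with all 18 libraries in one fit (adjusted P = 0.0107), with edgeR's own filter (adjusted P = 0.0357), with no filter (adjusted P = 7.44e-05) and without WT DMSO library 1 (adjusted P = 0.0102). Knockout cells gave niraparib changes of -0.13 (adjusted P = 0.437) for IGFBP4 and -0.19 (adjusted P = 0.143) for IGFBP5, and the genotype differences were 0.49 (adjusted P = 3.16e-06) and 0.46 (adjusted P = 0.00321). The IGFBP5 change in the knockout passed with DESeq2 (adjusted P = 0.0276) and with no filter (adjusted P = 0.0271).

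Of 16 other adaptors tested, niraparib raised 8 and lowered 3 in WT cells (median 0.18), and olaparib raised 5 and lowered 2 (median 0.077), or 3 and 1 without WT DMSO library 2. Over all genes the shares were 19.9% higher and 18.1% lower with niraparib, and 11.2% higher and 7.77% lower with olaparib. The docking protein GAB2 stood at 74.0, 74.5 and 76.3 CPM with DMSO, 123, 122 and 119.8 CPM with niraparib and 132, 132 and 138 CPM with olaparib in WT cells. It rose with both drugs (0.70, adjusted P = 6.12e-11 for niraparib and 0.84, adjusted P = 6.11e-11 for olaparib). GAB2 in PARP1 KO cells rose with olaparib, to 108 ± 7.58 CPM from 69.9 ± 0.468 CPM (0.62, adjusted P = 1.51e-06), and its change with niraparib was 0.12 (adjusted P = 0.516), a genotype difference of -0.59 (adjusted P = 5.42e-08). GAB1, its relative, rose with niraparib (0.60, adjusted P = 2.22e-08) and with olaparib (0.31, adjusted P = 5.33e-04) in WT cells, and the niraparib effect was smaller in the knockout (-0.56, adjusted P = 4.00e-06), where olaparib raised it (0.28, adjusted P = 0.00812). SOCS1, a feedback inhibitor of receptor signaling at a mean of 0.910 CPM, was also called with both drugs (1.54, adjusted P = 0.00132 and 1.12, adjusted P = 0.0363), and is named here after its values were seen. Its olaparib change did not pass when WT DMSO library 2, WT DMSO library 3 or WT olaparib library 1 was left out in turn (adjusted P = 0.13, 0.107 and 0.31, in that order). The genotype difference of its niraparib effect was -1.52 (adjusted P = 0.016). That difference did not pass when PARP1 KO DMSO library 1 or WT niraparib library 2 was left out in turn (adjusted P = 0.0685 and 0.0569, in that order).

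Of 11 other PI3K subunits and lipid phosphatases tested, niraparib raised 3 and lowered 3 in WT cells (median -0.048), and olaparib raised 1 (median 0.037), which was 2 without WT DMSO library 2 and 0 with all 18 libraries in one fit, while 1 rose and 1 fell with DESeq2 or with no filter. These stand beside 19.9% higher and 18.1% lower of all genes with niraparib and 11.2% higher and 7.77% lower with olaparib. INPP5D, at a mean of 0.255 CPM, was the only one called against DMSO in WT cells (2.06, adjusted P = 0.00404 with niraparib, named after its values were seen), with a genotype difference of -3.04 (adjusted P = 0.00606) for niraparib. PIK3IP1, a negative regulator of PI3K that is also named after its values were seen, stood at 14.6 ± 1.94 CPM with DMSO, 10.1 ± 1.60 CPM with niraparib and 20.6 ± 1.65 CPM with olaparib in WT cells (SD, n = 3). It fell with niraparib (-0.55, adjusted P = 0.00116), rose with olaparib (0.49, adjusted P = 0.0057) and was called between the drugs (-1.04, adjusted P = 2.32e-06). Its olaparib change did not pass with all 18 libraries in one fit (adjusted P = 0.0768). PIK3R2, whose product is the p85 beta subunit, is uncertain, since 88.2% of its exon bases overlap a gene on the same strand, and its mean was 0.0450 CPM. Among 23 genes of AKT and mTOR signaling, niraparib raised 4 and lowered 7 (median -0.038), and olaparib raised 5 and lowered 3 (median 0.037), beside the same shares of all genes. DDIT4, an mTORC1 inhibitor induced by stress, stood at 47, 49.4 and 47.8 CPM in WT cells with DMSO, 45.0, 35.9 and 43.4 CPM with niraparib and 95.9, 79.9 and 85 CPM with olaparib. DDIT4 rose with olaparib in WT cells (log2 fold change 0.86, SE 0.082, adjusted P = 4.21e-06) and in PARP1 KO cells (0.59, adjusted P = 0.0332), and its niraparib changes were -0.22 (adjusted P = 0.0504) and -0.13 (adjusted P = 0.84). The first of these passed with DESeq2 (adjusted P = 0.0282), size factors (adjusted P = 0.049), edgeR's own filter (adjusted P = 0.0396), no filter (adjusted P = 9.60e-04) and without WT niraparib library 1 (adjusted P = 0.0144). The knockout rise did not pass when PARP1 KO DMSO library 1, PARP1 KO DMSO library 2, PARP1 KO DMSO library 3 or PARP1 KO olaparib library 2 was left out in turn (adjusted P = 0.0997, 0.0969, 0.108 and 0.0516, in that order).

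Of 19 other FOXO factors and FOXO target genes tested, olaparib raised 11 and lowered 1 in WT cells (median 0.34) and raised 9 and lowered 0 in PARP1 KO cells (median 0.23). Of all genes, 11.2% were higher and 7.77% lower with olaparib in WT cells, and 8.29% changed in PARP1 KO cells (975 higher and 852 lower of 22037). The knockout count was 4 without PARP1 KO DMSO library 2 or PARP1 KO olaparib library 2, and 5 without PARP1 KO olaparib library 1, beside 3.65%, 3.95% and 6.16% of all genes, in that order. Niraparib raised 4 and lowered 6 in WT cells (median -0.086), beside 19.9% higher and 18.1% lower of all genes, and changed 0 in PARP1 KO cells (3 at an unadjusted P below 0.05 by edgeR, and 1, TRIB1, at an adjusted P below 0.05 by DESeq2), beside 0.109% of all genes. Between niraparib and olaparib in WT cells, 12 of these 19 were lower with niraparib and 0 higher, beside 32.2% of all genes that differed either way (3627 lower and 3605 higher of 22446). GADD45A, a stress-induced growth arrest gene, rose with both drugs in WT cells, from 9.61 ± 1.69 CPM to 25.3 ± 0.630 CPM with niraparib (1.40, adjusted P = 9.10e-11) and 22.3 ± 1.02 CPM with olaparib (1.23, adjusted P = 8.69e-09). TRIB1, a pseudokinase, rose with niraparib (0.81, adjusted P = 3.12e-07) and with olaparib (0.63, adjusted P = 4.10e-05). The genotype differences of the niraparib effect were -1.33 (adjusted P = 8.79e-07) for GADD45A and -0.48 (adjusted P = 0.00416) for TRIB1, and olaparib raised both in the knockout (0.66, adjusted P = 0.00288 and 0.56, adjusted P = 2.68e-04). Their olaparib effects differed between genotypes by -0.56 (adjusted P = 0.0752) and -0.062 (adjusted P = 0.859). The GADD45A difference passed with DESeq2 (adjusted P = 0.04), with no filter (adjusted P = 0.00325) and with the replicate number as a block (adjusted P = 0.0301). It also passed without PARP1 KO olaparib library 1 (adjusted P = 0.00213) or WT DMSO library 1 (adjusted P = 0.0132). The receptor ERBB3 fell with niraparib from 752 ± 29.3 to 415 ± 31.4 CPM (-0.86, adjusted P = 5.56e-11), and stood at 716 ± 21.1 CPM with olaparib (-0.068, adjusted P = 0.45). The transcriptional regulators CITED2 and RBL2 fell as well with niraparib (-0.76, adjusted P = 8.27e-11 and -0.63, adjusted P = 1.29e-09). The knockout's niraparib changes of ERBB3, CITED2 and RBL2 were -0.049 (adjusted P = 0.841), -0.029 (adjusted P = 0.917) and -0.0089 (adjusted P = 0.977), and the genotype differences were 0.80 (adjusted P = 4.86e-10), 0.72 (adjusted P = 1.22e-09) and 0.62 (adjusted P = 6.12e-09). With olaparib CITED2 fell in WT cells (-0.19, adjusted P = 0.00814), which did not pass without WT olaparib library 3 (adjusted P = 0.066), and RBL2 gave -0.10 (adjusted P = 0.179). In the knockout ERBB3 rose with olaparib (0.23, adjusted P = 0.0105). This did not pass when PARP1 KO DMSO library 2, PARP1 KO olaparib library 1 or PARP1 KO olaparib library 2 was left out in turn (adjusted P = 0.0673, 0.0507 and 0.0524, in that order). CITED2 and RBL2 gave 0.071 (adjusted P = 0.492) and 0.13 (adjusted P = 0.0906) there. The genotype differences of the olaparib effect were 0.30 (adjusted P = 0.0283), 0.27 (adjusted P = 0.04) and 0.24 (adjusted P = 0.0494). They did not pass when any of 6, 10 and 11 libraries was left out (adjusted P = 0.0582 to 0.0975, 0.0574 to 0.13 and 0.0531 to 0.126). With the replicate number as a block, those of CITED2 and RBL2 did not pass (adjusted P = 0.0683 and 0.0717). That of RBL2 also did not pass with no filter (adjusted P = 0.052). Without drug ERBB3 was lower in the knockout than in WT cells (-0.24, adjusted P = 0.0203). The difference did not pass when PARP1 KO DMSO library 1, PARP1 KO DMSO library 2, PARP1 KO DMSO library 3 or WT DMSO library 1 was left out in turn (adjusted P = 0.0785, 0.105, 0.0679 and 0.161, in that order).

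The list of TXNIP relatives and glucose-sensing factors had 10 genes tested. Niraparib raised 5 and lowered 2 in WT cells (median 0.27), and olaparib raised 5 and lowered 0 (median 0.21). The shares of all genes were 19.9% higher and 18.1% lower with niraparib, and 11.2% higher and 7.77% lower with olaparib. ARRDC4, a relative of TXNIP that is also known to respond to glucose, stood at 5.43, 5.16 and 4.96 CPM with DMSO, 12.3, 13.9 and 12.9 CPM with niraparib and 7.05, 7.80 and 7.59 CPM with olaparib. ARRDC4 rose with niraparib (log2 fold change 1.33, SE 0.10, adjusted P = 5.85e-10) and with olaparib (0.53, adjusted P = 7.82e-04). ARRDC2, another arrestin-domain gene, stood at 11, 10.6 and 9.15 CPM with DMSO, 26.6, 30.4 and 25.8 CPM with niraparib and 17.8, 17.3 and 18.5 CPM with olaparib, and rose with both (1.43, adjusted P = 1.54e-11 and 0.80, adjusted P = 1.02e-06). For these relatives, as for TXNIP, the WT groups lay apart in the order niraparib, olaparib and DMSO. The niraparib changes in the knockout were -0.15 (adjusted P = 0.794) for ARRDC4 and -0.11 (adjusted P = 0.874) for ARRDC2, and the olaparib changes -0.20 (adjusted P = 0.449) and 0.070 (adjusted P = 0.848). The genotype differences passed for both drugs, at -1.49 (adjusted P = 7.63e-09) and -0.73 (adjusted P = 0.0117) for ARRDC4 and at -1.55 (adjusted P = 7.85e-07) and -0.73 (adjusted P = 0.0345) for ARRDC2. For ARRDC2 the olaparib difference did not pass when any of 10 libraries was left out (adjusted P = 0.0514 to 0.0923), all but PARP1 KO DMSO libraries 2 and 3 of the 12 DMSO and olaparib libraries. MLX, the partner of MondoA and ChREBP, fell with niraparib from 106 ± 0.670 to 70.9 ± 4.86 CPM (-0.59, adjusted P = 7.54e-09) and was 106 ± 1.70 CPM with olaparib (-0.0041, adjusted P = 0.969), with a genotype difference of 0.58 (adjusted P = 2.93e-07) for niraparib. MLXIP, named after its values were seen, rose with niraparib (0.32, adjusted P = 2.49e-05) and with olaparib (0.23, adjusted P = 0.00279). Its genotype difference for niraparib was -0.22 (adjusted P = 0.0205). It did not pass when PARP1 KO DMSO library 2 or WT DMSO library 3 was left out in turn (adjusted P = 0.0689 and 0.0646, in that order).

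**Figure D4:**
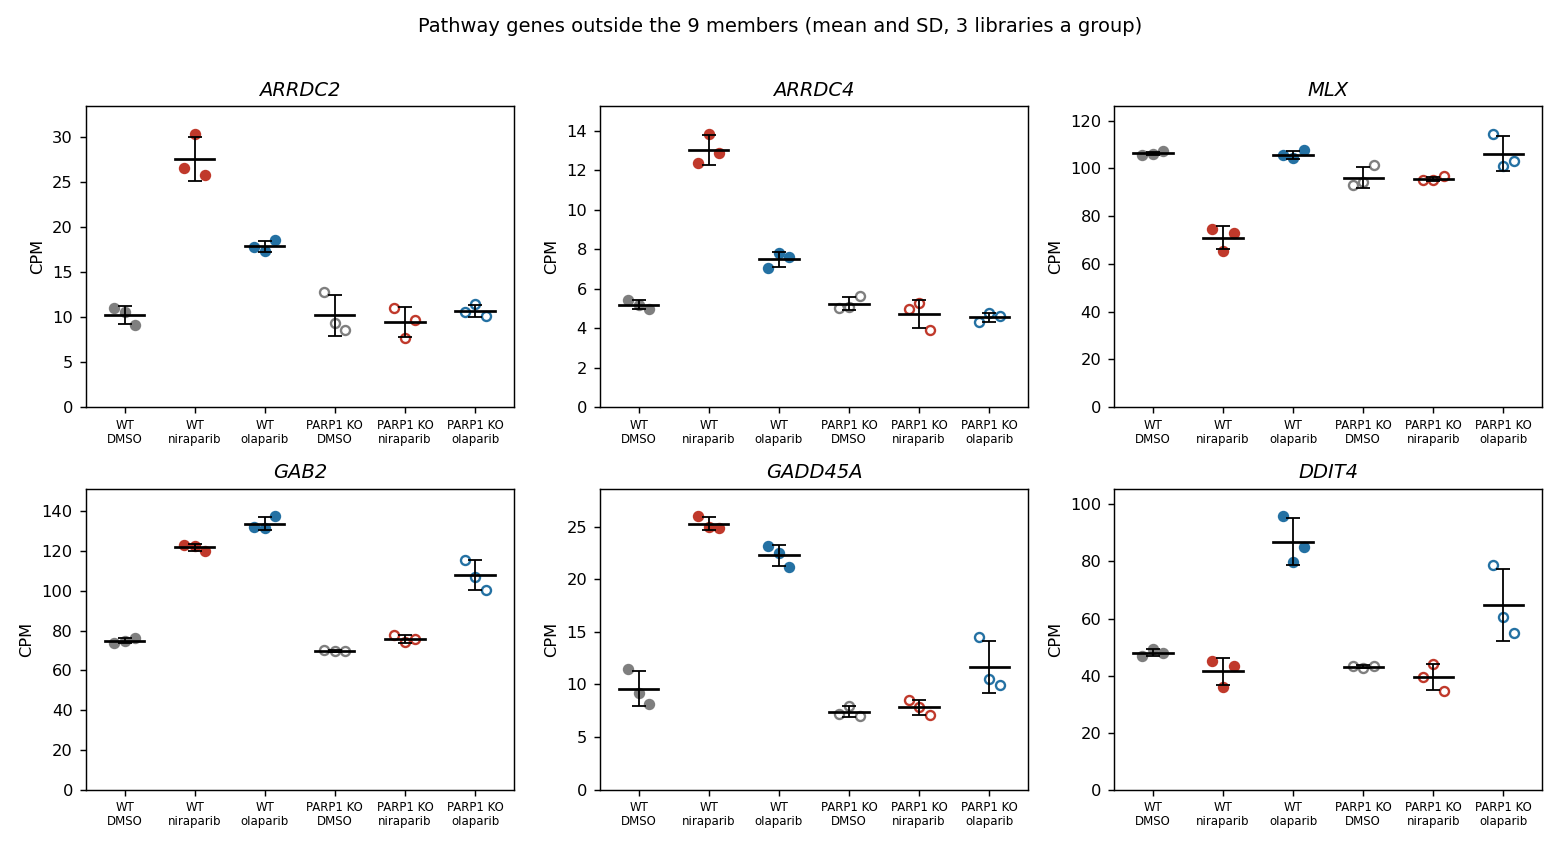
CPM of 6 pathway genes outside the 9 (ARRDC2, ARRDC4, MLX, GAB2, GADD45A and DDIT4) in the 18 libraries, with the mean and SD of each group in black. ARRDC2 and ARRDC4 are high with niraparib, intermediate with olaparib and low in every PARP1 KO group, and DDIT4 is high with olaparib in both lines.

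**Figure D5:**
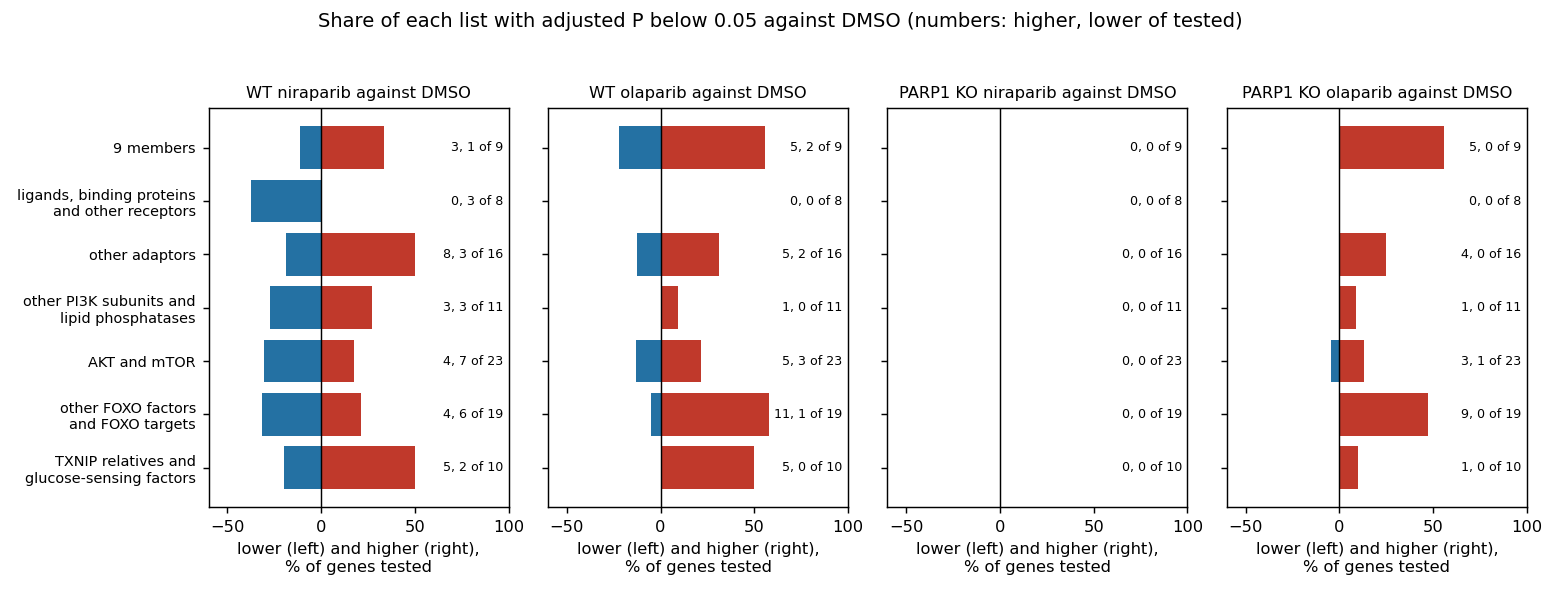
Share of the 9 genes and of each wider list that passed an adjusted P below 0.05 in edgeR against DMSO, with higher genes to the right in red and lower genes to the left in blue, and the counts printed beside. Olaparib raised 11 of 19 FOXO-list genes in WT cells and 9 of 19 in PARP1 KO cells, and the panel for niraparib in PARP1 KO cells is empty. Over all genes, olaparib raised 11.2% in WT cells and 975 of 22037 in PARP1 KO cells, and niraparib changed 0.109% in PARP1 KO cells. The knockout FOXO-list count was 4 or 5 without PARP1 KO DMSO library 2, PARP1 KO olaparib library 1 or PARP1 KO olaparib library 2.

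The genes whose log2 CPM followed each member most closely over the 18 libraries were ranked among 13526 genes by Pearson's r, as a description without a test, since the libraries of a group and their normalization are shared by both genes of a pair. For IGF1R these were GRB10 (r = 0.97), AGAP1 (r = 0.97) and SHANK2 (r = 0.97), of which GRB10 is itself an adaptor that binds the insulin and IGF1 receptors. GRB10 fell with niraparib in WT cells, from 107 ± 4.16 to 82.8 ± 3.78 CPM (-0.37, adjusted P = 3.99e-06). The change differed between genotypes by 0.36 (adjusted P = 1.40e-04). With olaparib in the knockout it gave 0.18 (adjusted P = 0.0284). The olaparib value did not pass when PARP1 KO DMSO library 1, PARP1 KO DMSO library 2, PARP1 KO DMSO library 3, PARP1 KO olaparib library 1 or PARP1 KO olaparib library 2 was left out in turn (adjusted P = 0.0601, 0.098, 0.0888, 0.0669 and 0.132, in that order). Nor did it pass with the replicate number as a block (adjusted P = 0.0537). INSR was followed by PLAAT3 (r = 0.95), EXOC4 (r = 0.95) and DDIT4 (r = 0.94). The closest genes to IRS1 were SAMD15 (r = 0.91), TMTC3 (r = 0.90) and CCDC71 (r = 0.90), and to IRS2 MTSS2 (r = 0.96), PIM3 (r = 0.95) and RAPH1 (r = 0.95). PIK3CA was followed by PHF3 (r = 0.95), GOLGA4 (r = 0.94) and PANK3 (r = 0.93), and PIK3R1 by IPO5P1 (r = 0.94), IFT80 (r = 0.93) and WAC-AS1 (r = 0.91). Those nearest to FOXO1 were MTX3 (r = 0.92), RCOR1 (r = 0.90) and AVL9 (r = 0.90). FOXO3 had FNIP1 (r = 0.98), TNKS2 (r = 0.98) and RCOR1 (r = 0.97), where TNKS2 encodes a tankyrase of the PARP family and RCOR1 also stood among the 3 nearest to FOXO1. TXNIP had CTF1 (r = 0.98), KLF10 (r = 0.98) and CEBPG (r = 0.98).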

How the data were processed

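RNA from 18 T47D samples (2 lines, 3 treatments, 3 libraries a group) was sequenced as stranded poly(A) libraries. The authors aligned reads to GRCh38 with STAR and marked duplicates with Picard, and the deposited values are raw gene counts from featureCounts (v2.0.0, Ensembl release 96). The names of the deposited tables carry the word deduplicated, but the sources used here do not give whether duplicate reads were dropped from the counts or only marked. The 18 deposited tables held 28890837 to 52251288 counts each, which limits precision to counting error and the spread between libraries. Each pair of groups was compared in edgeR 4.0.16 (R 4.3.3, TMM, quasi-likelihood test) on the libraries of 1 genotype, or on all 18 for the DMSO comparison between lines and the interactions, over genes with more than 10 counts in total. Benjamini-Hochberg adjustment covered all genes tested. RPKM used the exon length in the deposited tables. On simulated data with 200 genes changed by a log2 of 1, 177 were recovered for niraparib against DMSO in WT cells (12 other genes called among 21921), 167 in PARP1 KO cells (7 among 21513) and 163 for the niraparib interaction (5 among 24134). The changed genes were drawn above a minimum mean count, and recovery meant being called at over 1.5-fold. Smaller changes, such as those of most members, were not simulated. Alternatives were DESeq2 1.42.0, size factors, other filters, a replicate block, a joint fit and leaving out each library. The members and lists were chosen with earlier results of these data known. All 9 members are named, and from the wider lists each gene called with either drug in WT cells at a mean of at least 1 CPM, up to 5 a list. The 3 nearest genes of each member by correlation are also named. SOCS1, INPP5D, PIK3IP1, PIK3R2, MLXIP, INS, IGF1 and IGF2, and the values of GRB10, are outside this rule and were given after their values were seen. SOD2 had no match and was not used here. Promoters came from RefSeq (GRCh38.p14).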

Additional observations from a re-analysis of the deposited data

Results flagged for a closer look

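The effect of niraparib differed between the 2 lines for 4 of the 9 genes, by the interaction term of the edgeR fit over all 18 libraries, adjusted over all genes tested. This stands beside 22.9% of all 24675 genes tested, or 6028 of 17444 with edgeR's own filter. The log2 fold change of IGF1R was -0.40 in WT and -0.059 in PARP1 KO cells, a difference of 0.33 (adjusted P = 3.55e-04) that ran from 0.30 to 0.35 over the alternatives, with adjusted P values up to 0.002. The log2 fold change of FOXO1 was 0.31 in WT and -0.22 in PARP1 KO cells, a difference of -0.54 (adjusted P = 0.00696) that ran from -0.62 to -0.46 over the alternatives, with adjusted P values up to 0.0316. The log2 fold change of FOXO3 was 0.30 in WT and -0.047 in PARP1 KO cells, a difference of -0.36 (adjusted P = 0.00353) that ran from -0.39 to -0.33 over the alternatives, with adjusted P values up to 0.0141. The log2 fold change of TXNIP was 1.24 in WT and 0.12 in PARP1 KO cells, a difference of -1.12 (adjusted P = 0.00159) that ran from -1.22 to -0.97 over the alternatives, with adjusted P values up to 0.00604. TXNIP had the widest spread among the knockout libraries of the 9 genes with niraparib, at a coefficient of variation of 18.4%. Each genotype is 1 line, and whether the loss of PARP1 or another difference between the lines goes with these values cannot be told apart.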

How the results depend on the processing

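Without the 1.5-fold limit, the members counted were 4 for niraparib and 7 for olaparib against DMSO and 6 between the drugs in WT cells, 5 for olaparib against DMSO and 6 between the drugs in PARP1 KO cells, and 4 for the niraparib interaction. At an absolute log2 fold change over 1.5, the counts were 0 for both drugs in WT cells, for olaparib and between the drugs in PARP1 KO cells, and for the niraparib interaction. With 1 library left out, the members called ran from 1 to 2 for olaparib in WT cells (IRS2 joined TXNIP), 0 to 1 between the drugs in WT cells (INSR), 0 to 1 for olaparib in PARP1 KO cells (IRS2), 1 to 2 between the drugs in PARP1 KO cells (FOXO1 joined IRS2) and 1 to 2 for the niraparib interaction (FOXO1 joined TXNIP). Of all genes, 2.95% to 4.05%, 7.67% to 9.04%, 0.46% to 0.899%, 0.664% to 1.3% and 8.14% to 9.38% were called, in that order. The olaparib interaction of INSR, -0.0023 on the log2 scale, turned to 0.0039 with size factors, 0.0087 with edgeR's own filter and 0.0044 with DESeq2. Leaving out 1 library turned the sign of 9 values near 0, whose ranges were -0.023 to 0.022 for IGF1R with olaparib and -0.098 to 0.0048 for FOXO1 between the drugs in WT cells, -0.026 to 0.075 for INSR and -0.087 to 0.0060 for IRS1 with niraparib in PARP1 KO cells, -0.037 to 0.068 for FOXO1 between the lines with DMSO, and -0.066 to 0.048 for INSR, -0.11 to 0.14 for IRS2, -0.091 to 0.017 for FOXO1 and -0.11 to 0.049 for FOXO3 in the olaparib interaction. Whether the replicate numbers pair the samples could not be settled with 3 libraries a group (correlations of same-numbered libraries from -0.54 to 0.55, with 5 of 18 over 0.1). With the replicate block, 1 of 90 results on the 9 genes changed its side of the threshold, PIK3CA between the drugs in PARP1 KO cells, which lost it (-0.17, adjusted P = 0.0514). Of 786 results on wider genes, 5 newly passed and 13 lost the threshold with the block. IGFBP5 with olaparib (adjusted P = 0.0463) and DDIT4 with niraparib (adjusted P = 0.0198) in WT cells passed it, and SOCS1 with olaparib in WT cells (adjusted P = 0.0791) lost it. GADD45A in the olaparib interaction also passed it (adjusted P = 0.0301). CITED2 and RBL2 in the olaparib interaction (adjusted P = 0.0683 and 0.0717) and GRB10 with olaparib in PARP1 KO cells (adjusted P = 0.0537) lost it. The block moved the ligand list from 0 to 1 with olaparib in WT cells and the PI3K list from 1 to 0 with olaparib in PARP1 KO cells. Of all results and alternatives for the 9 genes, 985 kept their direction and side of the threshold, 28 lost the threshold, 17 passed it and 23 reversed. The causes were not tested. FOXO1 had the fewest reads of the 9 genes, 182 to 465 counts a library.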

Other observations

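Within the PARP1 KO olaparib group, library 1 was the highest and library 3 the lowest for INSR, IRS2, PIK3CA, FOXO3 and TXNIP. These libraries also differed most of the group over all genes (chi-square per gene 16.6), and library 3 had the highest mitochondrial share of the 18 (5.68%). The order of the members was noticed after the values were seen and was not tested.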
